A study of Homo sapiens with 6 samples.

Results

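The transcription factors that set intestinal identity were followed across 3 variants of HT-29, an established human colon adenocarcinoma line measured on Affymetrix arrays. They were found by name, as every probe set (a group of short probes against 1 transcript region) that the array's annotation assigned to CDX1, CDX2, HNF4A, HNF4G, KLF4, KLF5, GATA6, ELF3 or ATOH1 alone. Of these 9 factors, 8 had such a probe set, of 19775 genes that did in all, and they were covered by 15 probe sets; HNF4A was named by none and was not analysed here. BR200 and BR100 were resistant variants and the third was labelled wild type. The labels describe HT-29 cells held in bortezomib, an inhibitor of the proteasome, while its dose was raised in steps, over 7 months, between 20 nM and 300 nM. Clones were then taken by 2 limiting dilutions at 100 nM or 300 nM during 4 further months, so a resistant variant is a clonal line. That treatment text was also attached to wild type, and it states neither the cloning dose of BR200 nor whether drug was present at harvest. Every variant had 2 arrays, 1 labelled from 100 ng of total RNA with the Express kit and 1 from 3 ug with the One-Cycle kit. Nothing in the labels says that these came from separate cultures, so p-values measure the spread between arrays, which may be technical.

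The homeobox factors CDX1 and CDX2 switch on intestinal genes in the gut endoderm and keep them on in the adult epithelium, where the nuclear receptors HNF4A and HNF4G act with them at enterocyte genes. GATA6 is a zinc finger factor of the crypt, and ELF3 is an ETS-family factor made by epithelial cells. KLF5 is a zinc finger factor of dividing crypt cells, whereas its relative KLF4 is found in differentiated, growth-arrested cells and in goblet cells. ATOH1 commits progenitors to the secretory lineage and is repressed by Notch signalling through HES1.

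The factors divided into those near background and those above it, the same in all 3 variants. CDX1, CDX2 and ATOH1 lay near the array's background everywhere, and KLF4, KLF5, GATA6, ELF3 and HNF4G were all lower in BR200 and in BR100 than in wild type. KLF4 showed the widest span: its level was 2.79-fold lower in BR200 and 11.7-fold lower in BR100 than in wild type (log2 changes of -1.48 and -3.54). HNF4G was about equally low in both clones, at 5.25-fold below wild type in BR200 and 5.44-fold below it in BR100. In a bulk sample, fewer cells that make a transcript and less transcript per cell cannot be told apart.

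Levels are the authors' log2 values, on which the lowest value of the array set was 2.23. A gene was tested when its probe set with the highest mean reached a log2 value of 4 on at least 2 of the 6 arrays, which 10370 genes did. The 5 expressed factors passed on all 6 arrays and not through 1 group alone, and the other 3 did not pass. The test was limma's linear model of the variants with the kit as block, and a gene was called at an adjusted p under 0.05 over all genes tested. All 5 tested factors were called lower in BR200 than in wild type, where 66.5% of all tested genes were called, 35.4% higher and 31.2% lower. All 5 were also called lower in BR100, where 68.5% of tested genes were called, 36.7% higher and 31.8% lower. The median change of the 5 was -1.23 in BR200 and -1.72 in BR100, while the median over all tested genes was 0.04 in both comparisons. Both comparisons use the same wild type arrays and are given side by side for that reason.

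**Figure D1:**
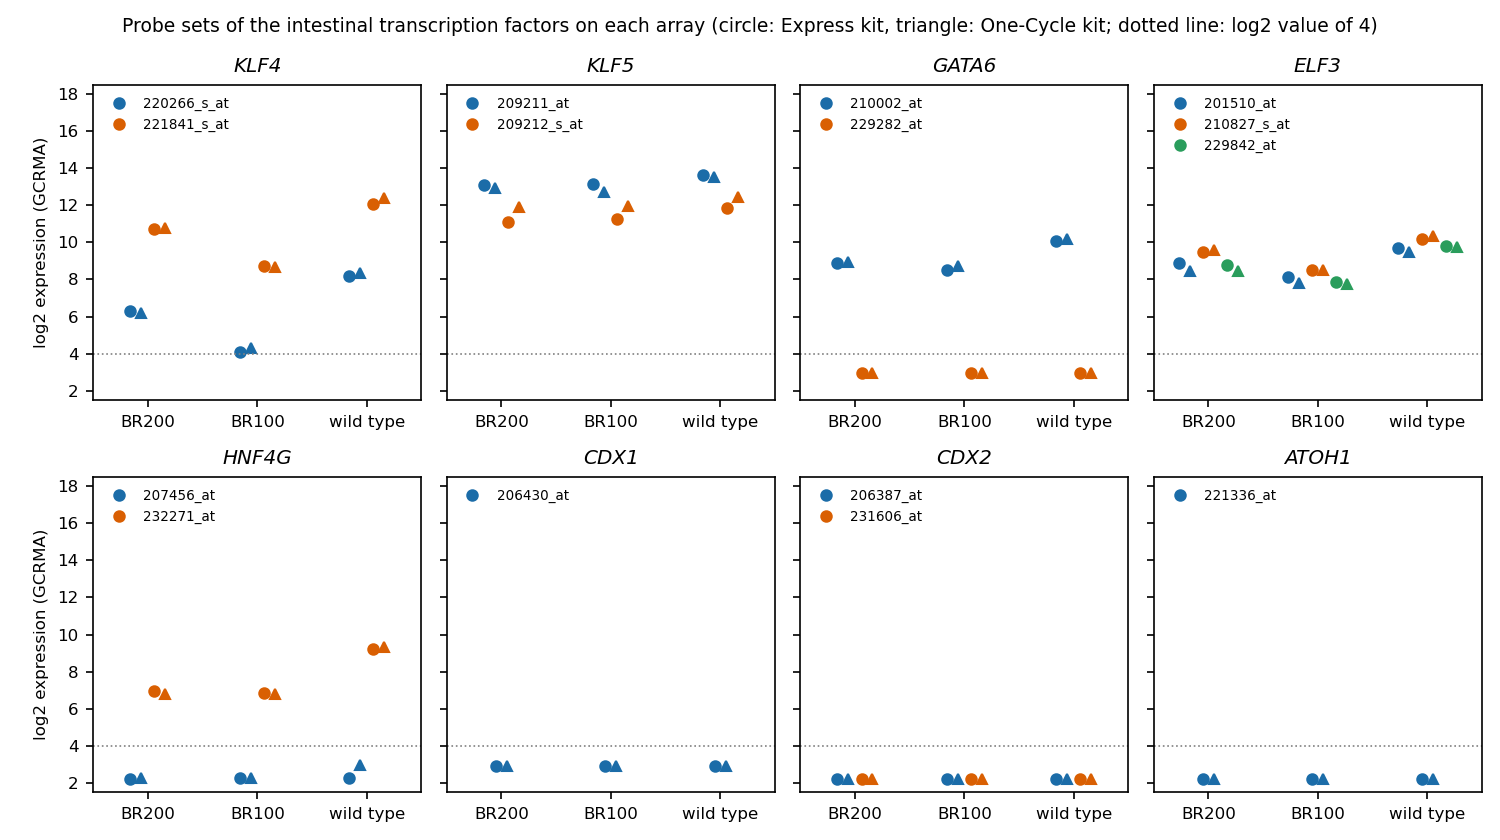
Each panel gives the log2 expression of the probe sets of 1 transcription factor on every array, with circles for the Express kit, triangles for the One-Cycle kit, a colour per probe set and a dotted line at a log2 value of 4. The probe sets of KLF4, GATA6, ELF3, HNF4G and KLF5 that reach 4 are lower in BR200 and BR100 than in wild type within each kit, and CDX1, CDX2 and ATOH1 lie between 2.23 and 2.91 on all 6 arrays.

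The factors near background gave no comparison. Both CDX2 probe sets, 206387_at and 231606_at, held the lowest value of 2.23 on all 6 arrays. ATOH1 probe set 221336_at also held 2.23 throughout. CDX1 probe set 206430_at was at 2.91 on every array. A value at or near the lowest one gives only an upper bound on the level, so these arrays do not show whether any of the 3 genes is transcribed at a low level, and no change can be read for them. Further probe sets of 2 tested factors stayed low as well: 229282_at of GATA6 lay between 2.94 and 2.95, and 207456_at of HNF4G between 2.23 and 2.97.

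The sequence upstream of the transcription start is shown for KLF4, GATA6 and ELF3, which were lower together. They had the larger changes among the 4 factors whose promoters were searched. These promoters were taken by symbol from RefSeq's GRCh38.p14 table, and each is the 250 bases before the start, 5' to 3' on the gene's strand. HNF4G, the other of the 5 tested factors, changed by -2.39 in BR200 and -2.44 in BR100. Its promoter was left out of the search, so nothing is shown for it here. Capitals mark matches to the motifs named in the text.
KLF4, chr9:107489770-107490019, minus strand: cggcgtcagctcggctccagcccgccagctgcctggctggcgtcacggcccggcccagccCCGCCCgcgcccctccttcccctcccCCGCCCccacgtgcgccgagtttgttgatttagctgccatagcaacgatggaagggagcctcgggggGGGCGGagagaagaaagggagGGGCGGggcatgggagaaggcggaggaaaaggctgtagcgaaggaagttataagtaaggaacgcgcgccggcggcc
GATA6, chr18:22169339-22169588, plus strand: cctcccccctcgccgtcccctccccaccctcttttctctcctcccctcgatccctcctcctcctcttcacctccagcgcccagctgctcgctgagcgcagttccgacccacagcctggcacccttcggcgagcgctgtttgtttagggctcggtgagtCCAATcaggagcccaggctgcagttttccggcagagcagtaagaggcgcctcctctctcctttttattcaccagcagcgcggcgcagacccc
ELF3, chr1:202010337-202010586, plus strand: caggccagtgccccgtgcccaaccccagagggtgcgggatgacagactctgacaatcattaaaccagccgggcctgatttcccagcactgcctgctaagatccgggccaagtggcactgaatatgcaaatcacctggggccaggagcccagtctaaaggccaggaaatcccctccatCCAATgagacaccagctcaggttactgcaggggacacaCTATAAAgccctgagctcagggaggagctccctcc
The KLF4 window was rich in G and C (69.2%, against a median of 58% over 35116 promoters) and held 4 matches to the GC box GGGCGG, 2 on each strand, which 42.6% of promoters held at least once. GATA6 (64.4% G and C) and ELF3 (58.4%) had none of these and each had 1 CCAAT box, spelled CCAAT, at 92 to 88 and 73 to 69 bases before the start; 32% of promoters had that match. ELF3 also had TATAAA, the TATA box, at 34 to 29 bases before the start, found in 10.7% of promoters. The CDX-type letters TTTATNG matched there too, on the other strand and over the same bases (8.93% of promoters). For KLF5 the table lists 2 starts. The window of the first, with 40.8% G and C, held the same overlapping pair of TATAAA and TTTATNG at 194 to 189 and 195 to 189 bases before the start. The window of the second (70.8%) held 2 GC boxes and 2 CCAAT boxes. The letters GGGNGTGG for KLF factors, AGATAA for GATA, CAAAGTCCA for HNF4 and CCGGAAG for ETS factors were searched on both strands and not found in these 5 windows. A match describes letters and is not a measured binding site.

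KLF4, the factor of differentiated and goblet cells, had the largest change in BR100 of the 5 tested factors. Probe set 221841_s_at had log2 values of 10.72 and 10.77 in BR200, 8.70 and 8.67 in BR100, and 12.07 and 12.38 in wild type, the Express array first in each pair. The arrays of the 3 variants did not overlap, in the order BR100, BR200, wild type from low to high. The log2 change from wild type was -1.48 in BR200 (SE 0.106, adjusted p = 0.000629) and -3.54 in BR100 (SE 0.106, adjusted p = 0.000107). Counted from the lowest change, KLF4 took rank 616 of 10370 genes in BR200 and rank 136 in BR100. The second probe set, 220266_s_at, ran lower but kept the same order, at 6.32 and 6.18 in BR200, 4.07 and 4.30 in BR100, and 8.18 and 8.33 in wild type. Tested on its own it gave larger changes, of -2.01 in BR200 and -4.07 in BR100, and its BR100 values lie close to the filter of 4. Both KLF4 probe sets carry a suffix that marks possible sharing with other transcripts.

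HNF4G, the partner and relative of HNF4A in enterocytes, fell to overlapping levels in both clones. Probe set 232271_at read 6.96 and 6.81 in BR200, 6.85 and 6.81 in BR100, and 9.20 and 9.35 in wild type. The clones overlapped with each other and lay more than 2 log2 units under wild type. The changes were -2.39 in BR200 (SE 0.0977, adjusted p = 0.000204) and -2.44 in BR100 (SE 0.0977, adjusted p = 0.000171).

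GATA6, a zinc finger factor that is needed for renewal of the crypt, was lower in both clones by more than 2-fold. Its probe set 210002_at read 8.89 and 8.93 in BR200, 8.50 and 8.70 in BR100, and 10.09 and 10.19 in wild type. The clones did not overlap with wild type, and BR100 lay under BR200 on both kits. GATA6 changed by -1.23 in BR200 (SE 0.0748, adjusted p = 0.000427) and by -1.54 in BR100 (SE 0.0748, adjusted p = 0.000242).

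ELF3, an activator of TGFBR2 in epithelial cells, was measured by 3 probe sets, all of which were lower in both clones. The brightest, 210827_s_at, read 9.48 and 9.60 in BR200, 8.53 and 8.54 in BR100, and 10.19 and 10.32 in wild type. The 3 variants did not overlap and had the same order as for KLF4. The log2 change of ELF3 was -0.71 in BR200 (SE 0.0727, adjusted p = 0.00157) and -1.72 in BR100 (SE 0.0727, adjusted p = 0.00019). In BR200 the size depended on the probe set, at -0.92 for 201510_at and -1.18 for 229842_at. In BR100 these probe sets gave -1.62 and -1.97.

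KLF5 had the smallest change of the tested factors. Probe set 209211_at read 13.11 and 12.91 in BR200, 13.13 and 12.71 in BR100, and 13.62 and 13.50 in wild type. The clones overlapped with each other and lay under wild type. The changes were -0.55 in BR200 (SE 0.0970, adjusted p = 0.00809) and -0.64 in BR100 (SE 0.0970, adjusted p = 0.00478). The BR200 call was lost without the Express array of BR200 (adjusted p = 0.0638) and without the One-Cycle array of wild type (adjusted p = 0.0561), over all alternatives of that result a range of 0.000152 to 0.0766. The kits moved the KLF5 probe sets in opposite directions: One-Cycle minus Express was -0.20 in BR200, -0.41 in BR100 and -0.12 in wild type for 209211_at, and 0.80, 0.74 and 0.60 for 209212_s_at. With the kit as a block, 209212_s_at changed by -0.64 in BR200 and by -0.55 in BR100.

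**Figure D2:**
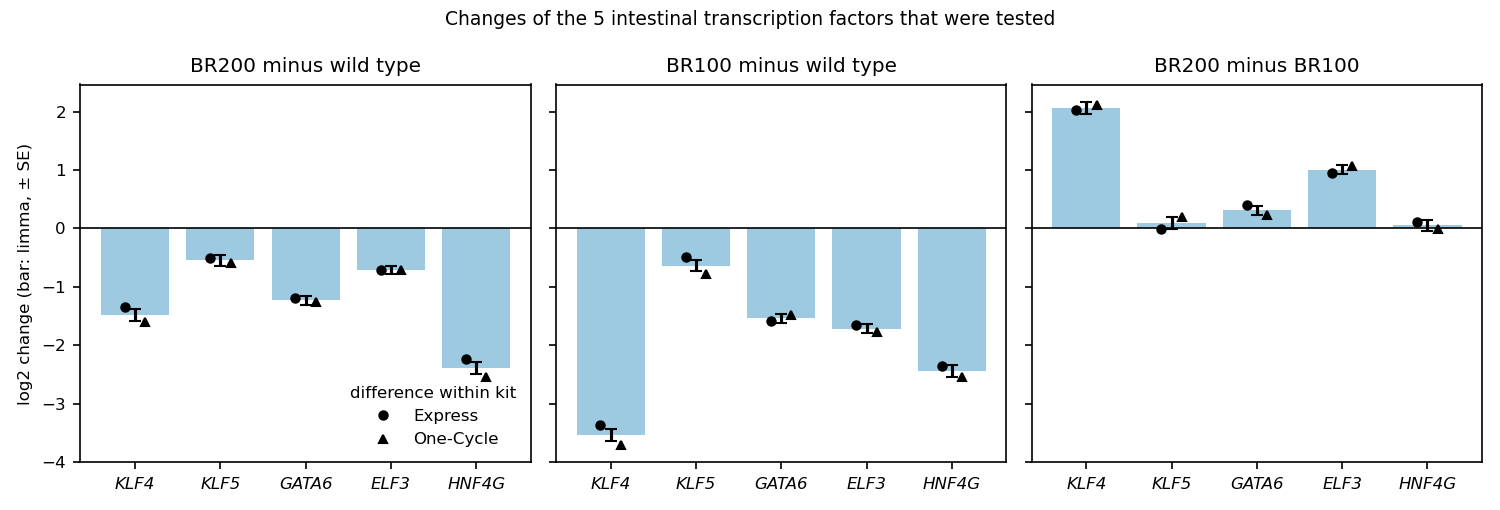
Bars give limma's log2 change with its SE for the 5 tested factors in each comparison, and black symbols give the difference within the Express (circle) and One-Cycle (triangle) kit. All bars lie below 0 against wild type, and in BR200 minus BR100 those of KLF4 and ELF3, at 2.06 and 1.01, stand above the rest.

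The direct comparison of the clones asked where the factors differ between BR200 and BR100. KLF4 and ELF3 were higher in BR200, 2 of the 5 tested factors, and none was lower; of all tested genes 10.6% were called, 6.39% higher and 4.23% lower. KLF4 was 4.18-fold higher in BR200, with a log2 difference of 2.06 (SE 0.106, adjusted p = 0.00525) that was 2.02 within the Express kit and 2.11 within the One-Cycle kit. ELF3 was 2.01-fold higher in BR200 (log2 difference 1.01, SE 0.0727, adjusted p = 0.00871), at 0.94 and 1.07 within the kits, although 201510_at and 229842_at gave 0.70 and 0.79. GATA6 differed by 0.31 (SE 0.0748, adjusted p = 0.0738), KLF5 by 0.09 (SE 0.0970, adjusted p = 0.584) and HNF4G by 0.05 (SE 0.0977, adjusted p = 0.756), none of which passed. Leaving out any array of a clone ended both calls, with sizes of 1.96 to 2.17 for KLF4 and 0.94 to 1.07 for ELF3, and leaving out a wild type array ended that of ELF3. These fits have fewer degrees of freedom, and without an array of BR200 or BR100 they called 0 genes of 10370, whereas 1953 to 2135 had an unadjusted p under 0.05.

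The chromosomal surroundings of each factor were compared with the factor itself. They were the 5 nearest tested genes on either side in the order of GRCh38.p14. Their reach differed between factors. The farthest lay 546 kb before and 868 kb after ELF3, but 12659 kb before KLF5 (TDRD3) and 5078 kb after HNF4G (ZBTB10). KLF4 on chromosome 9 lay under all 10 of its neighbours, whose median was -0.25 in BR200 and -0.14 in BR100. ELF3 on chromosome 1 fell amid neighbours that were mostly higher, with medians of 0.62 in BR200 and 0.52 in BR100. Of the 10, 6 were called higher and 2 lower in each clone, where 35.4% and 36.7% of all tested genes were called higher. PHLDA3 lay below ELF3 in BR200 (-0.84 against -0.71) but not in BR100 (-0.85 against -1.72). Around HNF4G on chromosome 8 the medians were 0.02 and 0.12, and 1 neighbour, ZBTB10, was lower than HNF4G itself, at -3.18 in BR200 and -3.25 in BR100. GATA6 on chromosome 18 had neighbour medians of -0.29 in BR200 and -0.24 in BR100, with RIOK3 below it at -1.52 and -1.86. KLF5 on chromosome 13 did not stand below its surroundings: 4 of 10 neighbours had lower changes in each clone, and the medians were -0.44 and -0.36. In each clone 6 of these 10 were called lower, where 31.2% of all tested genes were in BR200 and 31.8% in BR100. Its relative KLF12 was the next tested gene after it and changed by -1.81 in BR200 and -1.40 in BR100.

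**Figure D3:**
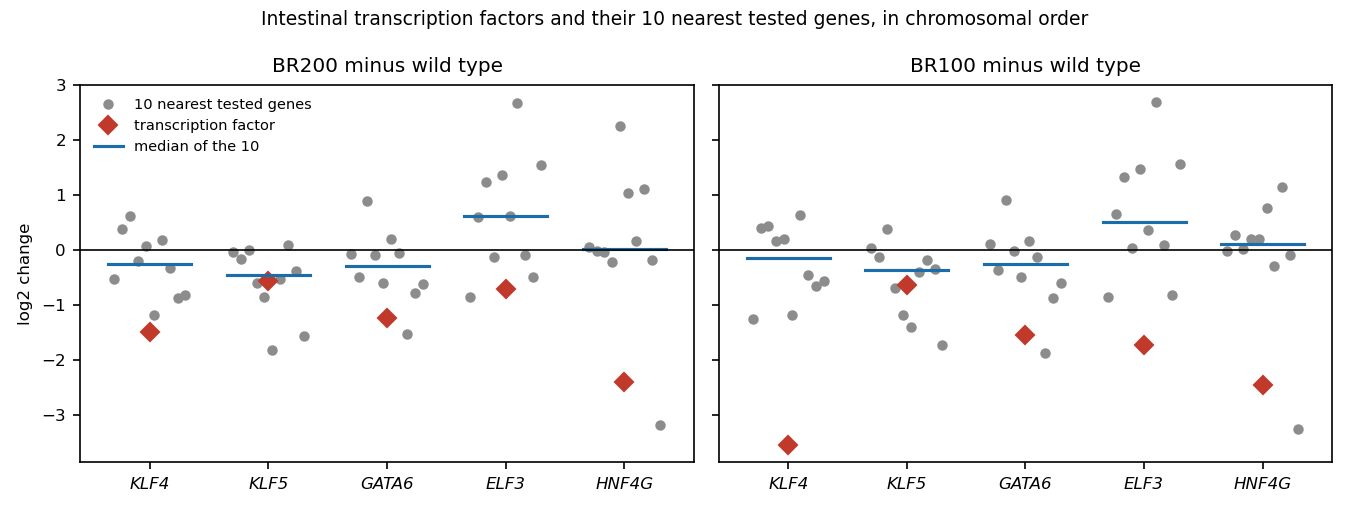
Log2 changes from wild type of 5 transcription factors (red diamonds) and of their 10 nearest tested genes on the chromosome (grey points, in chromosomal order, with the median as a blue line), in BR200 on the left and BR100 on the right. KLF4 lies under all 10 neighbours in both clones, and KLF5 lies within the spread of its own.

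The genes whose 6 values ran closest to each factor, after centring each gene on its mean, were named by the root mean square difference over the 6 arrays among all tested genes. For KLF4 they were HERC6 (0.151 log2 units) and IFIT2 (0.204), which changed by -1.75 and -1.42 in BR200 and by -3.73 and -3.11 in BR100. ELF3 was closest to GOLGA8A (0.0751) and RNF213 (0.0843). The nearest genes to HNF4G were TMPRSS4 (0.0516) and CREB5 (0.0686), and those to GATA6 were ABCC3 (0.0614) and RAPGEF2 (0.0672). KLF5 ran closest to TVP23B (0.0337) and TOB1 (0.0343). With 6 arrays and 10370 genes, near matches of this kind arise for many patterns.

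Counting both directions, other transcription factors of the gut epithelium were called about as often as genes in general. Of 26 listed, 21 had a probe set of their own and 13 were tested. In BR200 2 rose and 6 fell, where 66.5% of all tested genes were called, and in BR100 3 rose and 6 fell, where 68.5% were (medians -0.20 and -0.18). The shares of all tested genes called lower were 31.2% in BR200 and 31.8% in BR100. ONECUT2, a homeobox factor, fell in both clones, at -4.02 in BR200 and -1.69 in BR100, as did FOXA3, a forkhead factor, at -2.22 and -0.92. Both were lower in BR200 than in BR100, unlike KLF4 and ELF3: ONECUT2 differed by -2.33 between BR200 and BR100 (SE 0.129, adjusted p = 0.00584) and FOXA3 by -1.30 (SE 0.0775, adjusted p = 0.00645). PRDM1, a repressor of the fetal gut epithelium in mouse, passed the filter through wild type alone: it averaged 3.24 in BR200, 3.13 in BR100 and 5.87 in wild type, and its change has no measured size. FOXA1 rose by 0.82 in BR200 and 0.69 in BR100, calls that were lost without the Express array of BR200 (adjusted p = 0.0566) and of BR100 (adjusted p = 0.073). The calls of ONECUT2 and FOXA3 between the clones were lost without any array of either. They were also lost without the filter (adjusted p of 0.1 and 0.0831). That of ONECUT2 was lost without the kit block too (adjusted p = 0.0591), and that of FOXA3 without a wild type array. With probe sets averaged the BR100 median of the list was 0.05.

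Among structural relatives of the factors, 18 of 22 were tested, and 3 rose and 9 fell in BR200 against 3 and 10 in BR100 (medians -0.35 and -0.59). Against wild type, 35.4% of all tested genes were called higher and 31.2% lower in BR200, and 36.7% and 31.8% in BR100. KLF9 averaged 3.21 in BR200, 2.68 in BR100 and 7.57 in wild type, so it too passed the filter through wild type alone. KLF13 fell (-2.03 in BR200 and -2.91 in BR100), by less with its probe sets averaged (-1.14 and -1.79). ELF5, an ETS factor of glandular epithelia, averaged 8.13 in BR200 and 9.21 in BR100, while its wild type mean of 3.72 lay under the filter. KLF6 was at 0.16 in BR200 (adjusted p = 0.101), where 3 alternatives called it higher (averaged probe sets, 0.34, no suffixed probe sets, 0.24, and a trended, robust prior). In BR100 KLF6 fell (-1.20), a call lost without the kit block (adjusted p = 0.0638), and the clones differed by 1.36 (SE 0.0675, adjusted p = 0.00525). KLF11 and KLF13 were also higher in BR200 than in BR100, by 1.44 (0.78 with probe sets averaged) and 0.88, while KLF10 was lower there (-0.72). The calls of KLF6, KLF11, KLF13 and KLF10 between the clones were lost without an array of either clone. They were also lost without the kit block (adjusted p of 0.0715 to 0.264) and without the filter (0.0564 to 0.152). Leaving out a wild type array ended those of KLF11, KLF13 and KLF10.

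Known target genes of the KLF factors and of ELF3 included genes that rose and genes that fell. For KLF4 and KLF5, whose list includes genes that they repress, 8 of 10 were tested, and 3 rose and 4 fell in each clone. Over all tested genes, 35.4% were called higher and 31.2% lower in BR200, and 36.7% and 31.8% in BR100. CCNE1, the gene of cyclin E1, rose by 3.35 in BR200 and 3.45 in BR100. CDKN1A, which encodes the cell cycle inhibitor p21 and is activated by KLF4, fell (-1.73 in BR200 and -2.05 in BR100). The growth factor gene PDGFA (-1.81 and -2.06) and the receptor gene EGFR (-1.79 and -1.58) fell too. With probe sets averaged CCNE1 was at 1.67 in BR200 and 1.73 in BR100, and EGFR at -0.62 and -0.54, all still called. The median, -0.53 in BR200 and -0.41 in BR100, was 0.02 and 0.10 without probe sets suffixed _x_at, _s_at or _a_at. Of 6 ELF3 targets 5 were tested, and 1 rose and 3 fell in each clone (medians -0.68 and -0.62). LCN2, an iron-binding secreted protein, fell (-2.35 in BR200 and -3.09 in BR100), as did the tight junction gene CLDN7 (-1.09 and -1.52) and TGFBR2 (-0.68 and -0.62, or -0.37 and -0.36 averaged). PTGS2, the inducible cyclooxygenase, rose by 2.26 and 1.32.

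Most targets of CDX and HNF4 factors did not pass the filter. For CDX1 and CDX2, 3 of 10 targets passed the filter, and for HNF4 factors 2 of 13. KRT20, a keratin of differentiated colon cells, fell in both clones, at -0.56 in BR200 and -0.55 in BR100, calls that were lost without the kit block (adjusted p of 0.0555 and 0.057). HEPH, an iron oxidase of enterocytes, and the brush border cadherin gene CDHR5 passed the filter through wild type alone, so that their lower values in the clones followed from it. HEPH was at 2.23 on every array of both clones and averaged 4.83 in wild type. CDHR5 averaged 3.62 in BR200, 3.46 in BR100 and 5.93 in wild type. DSC2, a desmosomal cadherin, was at 0.36 in BR200 and at -0.15 in BR100 (adjusted p = 0.159), and with its probe sets averaged it was at -0.16 in BR200. Its BR200 call was lost without any array of BR200 or wild type (adjusted p of 0.0505 to 0.102). APOA4 was tested and not called, at 0.05 in BR200 (adjusted p = 0.509) and 0.03 in BR100 (adjusted p = 0.721).

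**Figure D4:**
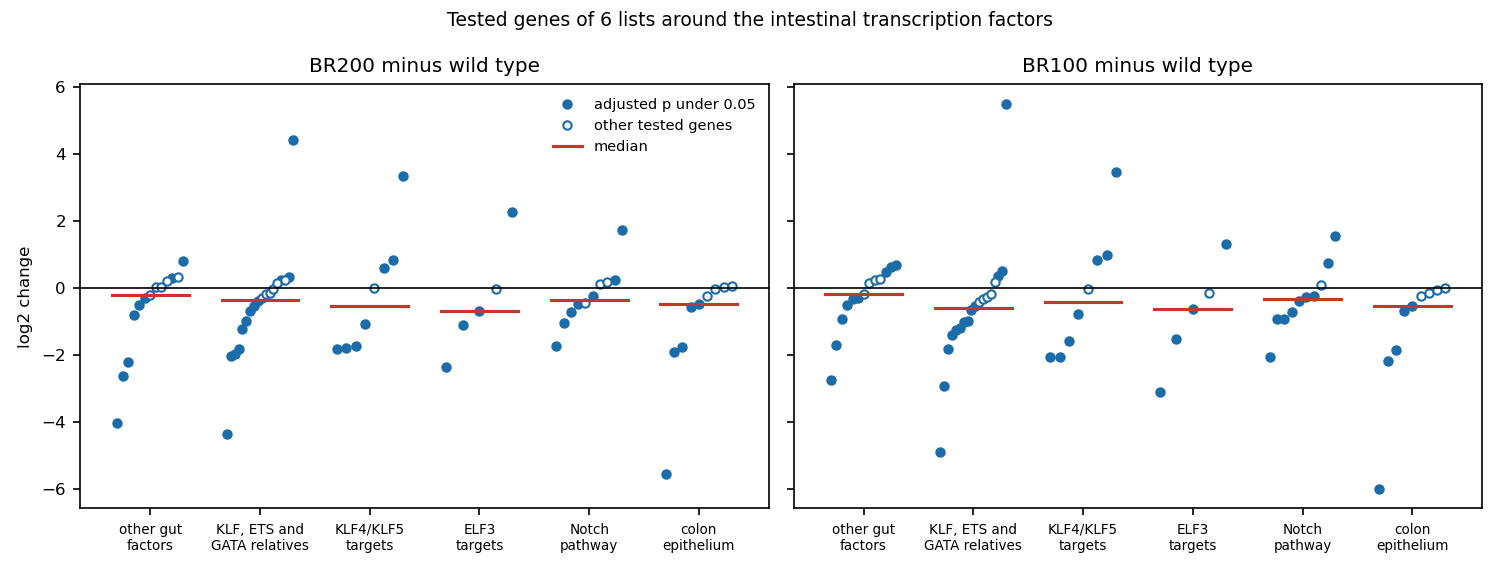
Log2 change from wild type of each tested gene in 6 lists, in BR200 on the left and BR100 on the right, with filled points for an adjusted p under 0.05, open points for other tested genes and a red line at the list's median. Points of PRDM1, KLF9 and ELF5 rest on a group whose mean lies under the filter of 4, so their distance from 0 is not a measured size; LGALS4, at -5.56 and -5.99, is the lowest colon epithelium marker.

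Of 10 markers of colon epithelium, 9 reached 4 on every array and 1, CDH17, was under 4 on every array. In each clone 5 of the 9 were called lower and 0 higher, and EPCAM, KRT8, KRT18 and KRT19 were not called. Of all tested genes, 31.2% were called lower and 35.4% higher in BR200, and 31.8% and 36.7% in BR100. LGALS4, a galectin of intestinal cells, fell (-5.56 in BR200 and -5.99 in BR100). The adhesion gene CEACAM5 (-1.91 and -2.17), the brush border gene VIL1 (-1.75 and -1.85), the E-cadherin gene CDH1 (-0.48 and -0.70) and KRT20 fell as well. With probe sets averaged CEACAM5 was at -0.92 and -1.08, VIL1 at -0.86 and -0.98, and CDH1 in BR200 did not pass (adjusted p = 0.0565). The summed level of these markers ranged from 17.07 to 17.07 in BR200, from 17.00 to 17.01 in BR100 and from 17.31 to 17.35 in wild type (log2). Most markers of other cell types lay under 4 on every array: 5 of 6 fibroblast genes (COL1A2, COL3A1, DCN, LUM and PDGFRB), 3 of 5 blood cell genes (PTPRC, CD3E and HBB) and 4 of 5 endothelial genes (PECAM1, VWF, CDH5 and KDR). COL1A1, ENG, CD14 and LYZ were above it. LYZ, which Paneth cells of the gut also make, averaged 14.69 in BR200, 14.61 in BR100 and 14.44 in wild type, and CD14 rose in BR200 (1.05, against 0.26 in BR100, adjusted p = 0.0737). The summed blood cell level ranged from 14.59 to 14.79 in BR200, 14.40 to 14.84 in BR100 and 14.34 to 14.55 in wild type; the fibroblast sum stayed between 6.02 and 6.32 and the endothelial sum between 5.47 and 5.52. Between 10063 and 10193 genes reached 4 on an array. The gap between the 3' and 5' probe sets of ACTB, which follows RNA integrity and labelling, moved with the variants and the kits. It was 3.24 and 1.76 in BR200, 3.03 and 1.86 in BR100, and 4.22 and 2.99 in wild type (Express first). That of GAPDH was 0.20 and 0.18 in BR200, 0.22 and 0.16 in BR100, and 0.48 and 0.40 in wild type. The part of these gaps in the lower values of the factors was not tested.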

How the data were processed

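For 54675 probe sets on 6 arrays, the authors deposited log2 values made with GCRMA, per the submitters' processing notes; its version is not given in the sources used here. On each array 34.9% to 35.3% of values were at the shared lowest one, and no detection calls were used. The number of arrays and the signal over background limit the precision. Probe sets naming 1 gene (41097) were used, those naming several (1801) or none (11777) were left out, and the brightest by mean stood for its gene. Symbols did not differ from RefSeq's (GRCh38.p14) for the 10357 tested genes matched. The variants were compared with limma 3.58.1 in R 4.3.3 (lmFit, eBayes, two-sided, Benjamini-Hochberg), which had 2 residual and 2.33 prior degrees of freedom. The code of the fit was run on simulated data in which far fewer genes changed than were called against wild type. That run does not test the calls made here. The kit is a labelled batch shared by the 3 variants and is the pairing block. Errors of changes are limma's SEs.

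The factors and lists were chosen with earlier results of these data known, so their counts are descriptions. Named genes were all factors, the 2 nearest patterns of each, and up to 4 called members with the largest change per list and comparison; others were named after their values were seen. Alternatives left out the kit block, changed the probe set rule, filter, scaling or variance prior, took each kit alone or left out each array.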

Additional observations from a re-analysis of the deposited data

Results flagged for a closer look

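KLF4 and ELF3 stood out because their changes from wild type differed between the resistant clones by a test of that difference. The change of KLF4 was 2.06 log2 units smaller in size in BR200 than in BR100 (2.063, limma adjusted p = 0.00525), and BR200 was above BR100 on both kits. That of ELF3 differed by 1.01 (1.0057, adjusted p = 0.00871), again on both kits. Both calls were lost when any array of a clone was left out, at sizes of 1.96 to 2.17 for KLF4 and 0.94 to 1.07 for ELF3, and that of ELF3 also without a wild type array. Groups of 2 arrays are too small for a test of outlying samples.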

How the results depend on the processing

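All 5 tested factors kept their negative direction against wild type under every alternative run, and KLF4, HNF4G, GATA6 and ELF3 kept their calls in both comparisons wherever they were tested. KLF5 lost its call without a filter on low values (adjusted p = 0.0766 in BR200 and 0.0576 in BR100) and, in BR200, without the kit block (0.0673). Averaged with a probe set at background, the change of HNF4G was -1.37 in BR200 and -1.40 in BR100, and that of GATA6 -0.61 and -0.77. With no replicate block for kit, 4100 genes were called for BR200 and 4387 for BR100 against wild type and 112 between the clones, against 6901, 7102 and 1102 with it; it ended no call of another of the 5 factors. Tested 1 by 1, 11349 and 11972 probe sets were called against wild type. Between the clones 15 genes and 0 factors were called without a filter, where 2956 genes and 3 factors had an unadjusted p under 0.05 (the cause was not tested), and 2254 genes with a trended, robust prior, which added GATA6 (adjusted p = 0.0323). Without suffixed probe sets 1 factor was called between the clones, since KLF4 has no other. Leaving out 1 array gave 5162 to 6457 genes and 4 to 5 factors for BR200, 5540 to 6606 genes and 5 factors for BR100, and 0 to 61 genes and 0 to 1 factors between the clones; a lone array of a variant was assumed to vary like the others. DSC2 changed sign in BR200 with probe sets averaged (-0.16). Scaling moved the median of all genes by less than 0.1.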

Other observations

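Genes around ATOH1 were looked at although ATOH1 itself was at background. Of 12 Notch pathway genes 10 were tested, and 2 rose and 5 fell in BR200 against 2 and 7 in BR100 (medians -0.34 and -0.33). Among all tested genes 66.5% were called in BR200, 35.4% higher and 31.2% lower, and 68.5% in BR100, 36.7% higher and 31.8% lower. HES1, counted with the other gut factors and not in this list, was called lower. It changed by -0.29 in BR200 (adjusted p = 0.0463) and -0.34 in BR100 (adjusted p = 0.0277). The ligand genes moved apart: JAG1 fell (-1.73 in BR200 and -2.05 in BR100), and JAG2 rose by 1.73 and 1.54. The protease gene ADAM17 fell (-0.71 and -0.92), in BR200 not without the kit block (adjusted p = 0.0523). Between the clones, LFNG, a glycosyltransferase that modifies Notch, was higher in BR200 by 0.87 (SE 0.0643, adjusted p = 0.00877), or 0.44 with probe sets averaged, and the receptor gene NOTCH2 was lower there (-0.67, SE 0.0954, adjusted p = 0.0305). The calls of LFNG and NOTCH2 between the clones were lost without the kit block (adjusted p of 0.095 and 0.121) and without the filter (0.051 and 0.184). The BR200 median of the list was 0.15 without suffixed probe sets.

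Of 11 genes of the secretory lineage 4 passed the filter, none rose, and 2 fell in BR200 and 1 in BR100. The shares called over all tested genes were 35.4% higher and 31.2% lower in BR200, and 36.7% and 31.8% in BR100. SPDEF, counted with the other gut factors and not here, rose in BR100 (0.62, adjusted p = 0.00537). In BR200 SPDEF was not called (0.20, adjusted p = 0.13). AGR2, which folds mucins, fell (-1.50 in BR200 and -1.14 in BR100). HES6 fell in BR200 (-0.49), a call lost without the kit block (adjusted p = 0.082), and stood at -0.17 in BR100 (adjusted p = 0.0855). ASCL2, a stem cell factor, was lower in BR200 than in BR100 (-1.06, SE 0.127, adjusted p = 0.0228), or -0.53 with probe sets averaged. That call was lost without the kit block (adjusted p = 0.0915) and without the filter (0.179). None of the calls of LFNG, NOTCH2 and ASCL2 between the clones held when an array of any variant, wild type included, was left out.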
